A study of Mus musculus with 3 samples.

Results

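Procr, Esam, Emcn, Tek, Clec1a, Slamf1, Cd48, Cd34 and Cd27 encode cell surface proteins that flow cytometry uses to separate mouse blood stem cells from their progeny. These 9 genes were taken by symbol from the deposited matrices, which list 32285 genes, and each symbol matched 1 gene. Their RNA was followed in 3 single-cell libraries of mouse bone marrow made with the 10x Genomics 3' v2 chemistry. The LSK library held cells sorted as lineage-negative, Sca-1 positive and Kit positive, the LK library held lineage-negative, Kit positive cells, and TBM was total bone marrow. Marrow came from leg, hip and spine bones, and antibodies to antigens of mature blood cells served to enrich the lineage-negative fraction. Whether Sca-1 positive cells were kept out of the LK gate is not given in the sources used here, and neither are the strain, age, sex and number of mice. Each gate was a single library, so differences between gates have no replicate check, no test was made, and the 95% intervals given cover only the error of counting.

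Blood formation in adult marrow starts from rare stem cells that lose stem cell surface proteins step by step as they turn into multipotent and then lineage-restricted progenitors. Cytometry gates read this sequence as combinations: CD150 (encoded by Slamf1) without CD48 for stem cells, EPCR (Procr), ESAM and TIE2 (Tek) for their most primitive fraction, and CD34, FLT3 and CD27 for the progenitors that follow. The gates were built on protein, and a cell without a detected transcript is not a cell without the protein.

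After filtering, 1067 LSK, 3461 LK and 4217 TBM cells remained, with 11836820, 49936180 and 21958139 UMIs (unique molecular identifiers, counted as molecules). Median depth per cell was 9688 UMIs in LSK, 13683 in LK and 3347 in TBM. To put cells on 1 depth, shares of cells with a UMI were also computed after each cell was thinned to 2000 UMIs, which kept 1067 LSK, 3452 LK and 2929 TBM cells. The loss in TBM was uneven over the cell classes named below. It kept 296 of 779 B cell-like, 297 of 562 pro-B and pre-B cell-like and 1053 of 1520 neutrophil-like cells, but 395 of 401 monocyte-like cells. Thinned values of TBM therefore describe its deeper cells, with fewer B-lineage cells than the whole library. The genes of the gate itself followed the labels: Ly6a, which encodes Sca-1, had 101 CPM (UMIs scaled to a common library total) in LSK, 7.75 in LK and 30.9 in TBM, and Kit had 81.3, 34.4 and 7.61 CPM. Few cell barcodes were shared between libraries, 6 between LSK and LK, 6 between LSK and TBM and 26 between LK and TBM. Transcripts are counted at their 3' ends, so CPM was not divided by gene length.

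The promoters are shown for genes whose levels moved together across cell groups (Procr and Emcn) and for the pair that the SLAM gate reads in opposite directions (Slamf1 and Cd48). Procr lies at chr2:155751117-155755471 and Emcn at chr3:137341067-137432185, both on the plus strand (GENCODE annotation of GRCm38). Cd48 (chr1:171682009-171705258) and Slamf1 (chr1:171767127-171801184) are neighbours on the plus strand of chromosome 1, 61.9 kb apart with 0 other protein-coding genes between them. Each window of 300 bases is from RefSeq on GRCm38.p6 and runs from 250 bases before the transcription start to 50 after it: chr2:155750967-155751266 for Procr, chr3:137340828-137341127 for Emcn, chr1:171766882-171767181 for Slamf1 and chr1:171681742-171682041 for Cd48. Capitals mark matches to 3 short motifs, searched on both strands so that a match may also stand as the reverse complement. The core bound by ETS factors was searched as GGAAG. The motif of GATA factors was searched as GATAAG. The motif of RUNX factors was searched as TGTGGT. Matches of different motifs do not overlap.
Procr: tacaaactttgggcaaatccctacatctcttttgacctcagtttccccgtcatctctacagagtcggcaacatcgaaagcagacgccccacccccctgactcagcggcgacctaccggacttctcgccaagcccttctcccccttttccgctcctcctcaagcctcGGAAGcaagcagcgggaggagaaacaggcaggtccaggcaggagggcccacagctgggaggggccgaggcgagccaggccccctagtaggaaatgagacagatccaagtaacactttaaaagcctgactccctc
Emcn: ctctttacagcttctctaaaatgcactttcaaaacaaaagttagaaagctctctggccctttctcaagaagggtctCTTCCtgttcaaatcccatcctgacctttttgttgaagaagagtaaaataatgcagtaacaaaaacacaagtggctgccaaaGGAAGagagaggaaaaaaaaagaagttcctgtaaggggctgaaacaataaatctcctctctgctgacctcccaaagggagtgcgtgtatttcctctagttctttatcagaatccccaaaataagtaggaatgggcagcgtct
Slamf1: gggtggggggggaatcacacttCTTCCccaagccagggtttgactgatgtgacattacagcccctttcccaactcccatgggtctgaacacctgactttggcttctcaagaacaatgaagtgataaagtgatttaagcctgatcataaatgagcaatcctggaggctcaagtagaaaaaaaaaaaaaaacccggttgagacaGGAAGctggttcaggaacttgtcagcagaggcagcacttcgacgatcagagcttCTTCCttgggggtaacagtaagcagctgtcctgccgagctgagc
Cd48: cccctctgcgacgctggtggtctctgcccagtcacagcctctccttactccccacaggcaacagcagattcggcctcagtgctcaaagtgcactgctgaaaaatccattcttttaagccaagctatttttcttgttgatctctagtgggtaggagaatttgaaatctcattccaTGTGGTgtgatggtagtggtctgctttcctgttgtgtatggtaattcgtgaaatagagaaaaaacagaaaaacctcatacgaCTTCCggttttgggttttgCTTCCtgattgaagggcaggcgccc
The Procr window holds 1 ETS core, Emcn 2, Slamf1 3 and Cd48 2, and Cd48 also holds 1 RUNX match. Of the 9 genes, 7 had a RefSeq promoter, and 6 of these held the ETS core, 2 (Tek and Cd34) the GATA motif and 1 (Cd48) the RUNX motif. Over all 32851 promoters of the same length the shares were 71.4%, 7.44% and 16.8%. These matches describe the letters of the windows and are not binding sites.

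Between LSK and LK the genes split into a group with a steep gradient and a group with a shallow one. Procr, Esam, Emcn and Clec1a stood 7 to 16 times higher in LSK than in LK, Tek and Slamf1 close to 4 times higher, Cd27 close to 2 times and Cd34 less than 2 times higher, and Cd48 was lower in LSK. For LSK over LK, 7 of the 9 genes lay at or above 2-fold and 0 at or below 2-fold lower, while among the 13016 genes measured (at least 20 UMIs over both libraries) 19.9% were higher and 4.04% lower by that much. The median log2 ratio was 1.91 for the 9 genes and 0.34 for all genes measured. In sums over a library, fewer cells of a type and less RNA per cell cannot be told apart.

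Procr encodes the endothelial protein C receptor, which binds activated protein C. It had 58.5 CPM (LSK), 3.90 (LK) and 0.546 (TBM), from 693, 195 and 12 UMIs. After thinning, a Procr UMI was held by 13.03% of cells in LSK, 1.13% in LK and 0.137% in TBM, and at full depth 40.2%, 4.71% and 0.213%. The libraries did not overlap in their intervals, and LSK over LK was a log2 ratio of 3.91 (3.67 to 4.14). Procr was also higher in LK than in TBM, by 7.15 times.

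Esam encodes an adhesion molecule of endothelial junctions and platelets that also marks stem cells. Its levels were 54.0 CPM (LSK), 4.81 (LK) and 0.455 (TBM). Emcn encodes endomucin, a mucin-like sialoglycoprotein, and had 31.9, 4.51 and 0.182 CPM in the same libraries. The LSK over LK log2 ratios were 3.49 (3.27 to 3.71) for Esam and 2.82 (2.58 to 3.07) for Emcn, again with no overlap between libraries. Both genes were nearly silent in total marrow, which gave 10 Esam and 4 Emcn UMIs.

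Clec1a encodes a C-type lectin receptor known from endothelial and myeloid cells. It had 16.4 CPM (LSK), 1.02 (LK) and 0.228 (TBM), the last from 5 UMIs. Its LSK over LK log2 ratio, 4.004 (3.55 to 4.48), was the highest of the 9, although its interval overlaps that of Procr. Tek encodes TIE2, the receptor of the angiopoietins, and was far rarer than the other endothelial-type genes. It had 6.34 CPM in LSK and 1.68 in LK, and 1 UMI in all of TBM. LSK over LK was 1.91 (1.44 to 2.38) for Tek. Against the single TBM molecule the LK over TBM log2 ratio was 5.21 with an interval of 2.69 to 10.5, so its size is hardly fixed.

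Slamf1 and Cd48 are neighbouring genes of the SLAM family, whose proteins sit on most blood cells and act in cell-to-cell signalling. Slamf1 was scarce in every library, with 5.49 CPM (65 UMIs) in LSK, 1.52 (76 UMIs) in LK and 2.14 (47 UMIs) in TBM. LSK exceeded LK by a log2 ratio of 1.85 (1.35 to 2.35), whereas LK over TBM was -0.49 (-1.04 to 0.07), an interval that covers 0. Cd48 was abundant throughout, with 132 CPM (LSK), 214 (LK) and 143 (TBM). Cd48 alone of the 9 genes was lower in LSK than in LK, by a log2 ratio of -0.70 (-0.77 to -0.62). LSK and TBM differed little in Cd48, with a log2 ratio of -0.11 (-0.20 to -0.02).

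Cd34 encodes a sialomucin used in adhesion and trafficking, and in the mouse its protein marks multipotent and myeloid progenitors rather than most adult stem cells. It had 446 CPM (LSK), 260 (LK) and 16.6 (TBM). The drop lay between LK and TBM, where the log2 ratio was 3.97 (3.82 to 4.12), and LSK over LK was only 0.78 (0.73 to 0.83). Cd27 encodes a receptor of the TNF receptor family that binds CD70, and marks progenitors with lymphoid potential as well as lymphocytes. Its levels were 176 CPM (LSK), 87.3 (LK) and 30.7 (TBM), and LK exceeded TBM by a log2 ratio of 1.51 (1.39 to 1.62). Cd27 stood just past 2-fold for LSK over LK, at a log2 ratio of 1.02 (0.94 to 1.09), and it lay below 2-fold when libraries were scaled by size factors or cells weighted equally. Cd27 lies wholly inside Vamp1, a gene on the other strand, and whether the counting used strand is not given in the sources used here. Vamp1 itself had 31 UMIs in LSK, 113 in LK and 76 in TBM. Cd34 likewise overlaps an antisense gene, Gm16897, which had 2, 2 and 0 UMIs.

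Against total marrow most of these genes were higher in the sorted gates. For LK over TBM 7 of the 9 genes were at least 2-fold higher and 0 lower, with 27.3% of 13416 genes higher and 16.8% lower. For LSK over TBM 8 were higher and 0 lower, with 36.9% of 12916 genes higher and 13.1% lower. The LSK over TBM log2 ratios were 7.45 for Emcn (6.08 to 9.33), 6.89 for Esam, 6.74 for Procr, 6.17 for Clec1a, 4.75 for Cd34 and 2.52 for Cd27. Tek had 7.12, with an interval of 4.598 to 12.4 against its single TBM molecule. Slamf1 was past 2-fold at 1.36 (0.80 to 1.93), but stood at 0.68 with size factors and 0.39 with equal weight per cell. Cd48 was the gene past 2-fold in neither direction for both TBM comparisons, joined by Slamf1 for LK over TBM. The comparisons share libraries and are not independent of each other. Scaling by median-of-ratios size factors lowered every ratio, by 0.33 (LSK over LK), 0.34 (LK over TBM) and 0.68 (LSK over TBM). The shares of all genes past 2-fold then became 13.3% higher and 6.16% lower in the LSK over LK comparison. They became 17.5% and 21.4% when LK was set against TBM, and 18.4% and 20.8% when LSK was. Under that scaling Cd48 passed 2-fold lower for LSK over LK, at a log2 ratio of -1.03.

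**Figure D1:**
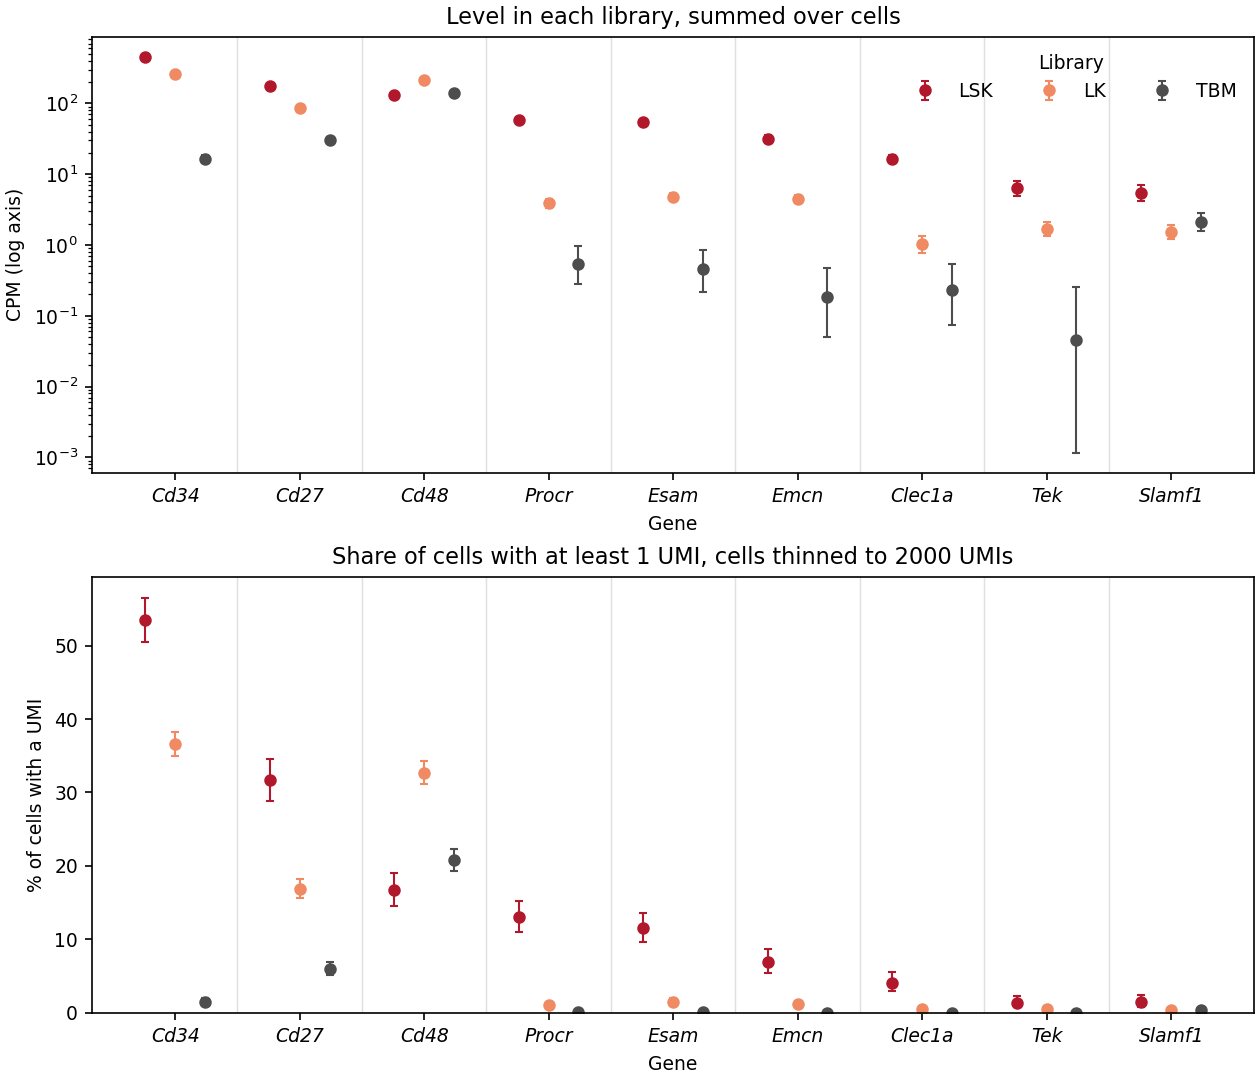
Level (CPM, log axis, upper panel) and share of thinned cells with at least 1 UMI (percent, lower panel) of the 9 genes in LSK, LK and TBM. Points are library values and bars 95% counting intervals. Procr, Esam, Emcn, Clec1a and Tek step down from LSK to LK to TBM, Cd48 peaks in LK at 214 CPM, and Slamf1 has 5.49, 1.52 and 2.14 CPM in LSK, LK and TBM but thinned shares of 1.4995%, 0.435% and 0.341%.

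Since several of these genes are also expressed by blood vessels, a list of 14 endothelial genes was read beside them. In LSK 12 of the 14 had UMIs, and in LK and TBM 10 each, and their summed level was 84.1 CPM (LSK), 50.02 (LK) and 28.8 (TBM). Most of the LSK sum came from Tie1 (433 UMIs) and Pecam1 (402 UMIs), which blood progenitors are known to express as well. Cdh5, which encodes VE-cadherin, had 0 UMIs in LSK, 1 in LK and 24 in TBM, and Gpihbp1 had 0 in all libraries. Fabp4 was also highest in TBM, with 1 UMI in LSK, 4 in LK and 102 in TBM. Other rare markers of the list differed in where they were highest. Robo4 had 85 UMIs in LSK, 31 in LK and 0 in TBM, and Ramp2 had 23, 32 and 1. Kdr had 15, 14 and 7, and Sox18 12, 0 and 1. Relative to library totals, LSK stood highest for each of these 4, at 7.18, 1.94, 1.27 and 1.01 CPM. Plvap was highest in LK, with 1.61 CPM (LSK), 2.72 (LK) and 0.546 (TBM). Flt1 was lowest in LSK, with 0.0845, 0.701 and 0.820 CPM in the same libraries. The part of endothelial cells in the levels of the 9 genes was not tested.

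Cells of all libraries were grouped into 23 clusters with the 9 genes left out, so their levels by cluster are not fixed by the clustering. Clusters 1 and 6 were stem and multipotent progenitor-like and held 88.7% of the cells in LSK, 14.6% in LK and 0.356% in TBM. These cells carried 97.0% of the Procr UMIs, 97.5% of the Esam UMIs, 95.2% of the Emcn UMIs and 95.9% of the Clec1a UMIs of LSK. In LK the same class gave 63.6% of the Procr, 65.0% of the Esam, 46.2% of the Emcn and 72.5% of the Clec1a UMIs. Unnamed clusters held 28.7% of the Procr and 40.9% of the Emcn UMIs of LK, with Emcn at 8.34 CPM in cluster 3. In total marrow, 8 of the 10 Esam UMIs and 3 of the 4 Emcn UMIs came from the 15 stem and multipotent progenitor-like cells. The same 15 cells gave 5 of the 12 Procr UMIs and 2 of the 5 Clec1a UMIs.

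Within that class Procr, Esam, Emcn and Clec1a were higher in cluster 1 than in cluster 6. Procr had 95.4 CPM in cluster 1 and 27.4 in cluster 6 among LSK cells, and 64.9 and 11.7 CPM among LK cells. Clec1a showed the same order, with 25.6 and 8.82 CPM in LSK and 20.9 and 2.86 in LK. Cd48 ran the other way, with 85.0 CPM in cluster 1 and 163 in cluster 6 of LSK, and 147 and 239 in LK. In granulocyte-monocyte progenitor-like LK cells, a class that should lack the stem cell genes, Emcn was at 1.23 CPM and in 2.495% of cells at a median of 20058 UMIs. Procr was at 0.757 CPM and in 1.54% of those cells, Tek at 0.189 CPM, and Esam, Slamf1 and Clec1a at 0.0946 CPM each. In neutrophil-like TBM cells no Esam, Emcn, Tek or Clec1a UMI was seen in 1520 cells at a median of 3256 UMIs, which by 3 counts of the total allows a share of cells with a UMI of up to 0.197% at that depth.

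Esam, Tek, Slamf1 and Clec1a were also found in megakaryocyte lineage-like LK cells, and Tek and Slamf1 in erythroid progenitor-like ones. Esam reached 56.9 CPM in megakaryocyte lineage-like LK cells, close to its 64.9 CPM in LK cells of cluster 1, while Procr was at 3.16 CPM there and Esam in erythroid progenitor-like cells at 1.84 CPM. Clec1a had 8.43 CPM in the megakaryocyte lineage-like cells, which held 15.7% of its LK UMIs, and 0 UMIs in the erythroid progenitor-like cells. Tek had its highest value in the same megakaryocyte lineage-like cells, at 11.6 CPM (5.78 to 20.7) from 11 UMIs. That interval overlaps the one of LSK cluster 1, at 8.52 CPM (6.32 to 11.2), so the order is not fixed. Tek had 6.12 CPM in mast cell and basophil-like and 5.12 CPM in erythroid progenitor-like LK cells. Of the 76 Slamf1 UMIs of LK, 48.7% lay in erythroid progenitor-like cells, which were 17.4% of the library, and 14.5% in megakaryocyte lineage-like cells, which were 2.89%. Slamf1 in total marrow was mainly a lymphoid transcript: 72.3% of its TBM UMIs came from B cell-like cells, with 25.5 CPM in cluster 5 and 8.63 in cluster 12, and T cell-like cells had 6.20 CPM. Among combinations of library and cluster with at least 30 cells, cluster 5 had the highest Slamf1 level, with an interval of 17.2 to 36.4 CPM. LSK cluster 1 had 7.67 CPM (5.59 to 10.3). At 2000 UMIs per cell Slamf1 was in 2.11% of the 190 cells of cluster 5 that were deep enough, out of 599, and in 1.93% of LSK cluster 1. These shares rest on few cells with a UMI and have no interval here, so they do not show whether the 2 clusters differ at that depth.

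Cd48, Cd34 and Cd27 were spread over many classes. Cd48 was highest in dendritic cell-like (661 CPM) and monocyte-like (439 CPM) TBM cells and low in neutrophil-like cells (6.65 and 6.45 CPM) and erythroblast-like cells (2.33 CPM). Cd34 was highest in lymphoid-primed progenitor-like LSK cells at 575 CPM, stayed between 419 and 507 CPM in all other LSK and LK clusters of the stem-like class and in cluster 3, and dropped to 46.5 CPM in erythroid progenitor-like and 35.8 CPM in megakaryocyte lineage-like LK cells. Cluster 3, led by Cpa3, Ccl9 and Cebpa, was left unnamed because none of the markers of its best-scoring class, granulocyte-monocyte progenitors, was among its leading genes. Cd27 was highest in T cell-like TBM cells (296 CPM), followed by lymphoid-primed progenitor-like LSK cells (250 CPM) and LK cells of cluster 1 (211 CPM). The T cell-like cluster scored 4.45 on T cell markers and 4.04 on NK cell markers, so its name does not set NK cells apart. In erythroid progenitor-like LK cells 22.6% held a Cd34 and 23.4% a Cd27 UMI at a median of 6650 UMIs.

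**Figure D2:**
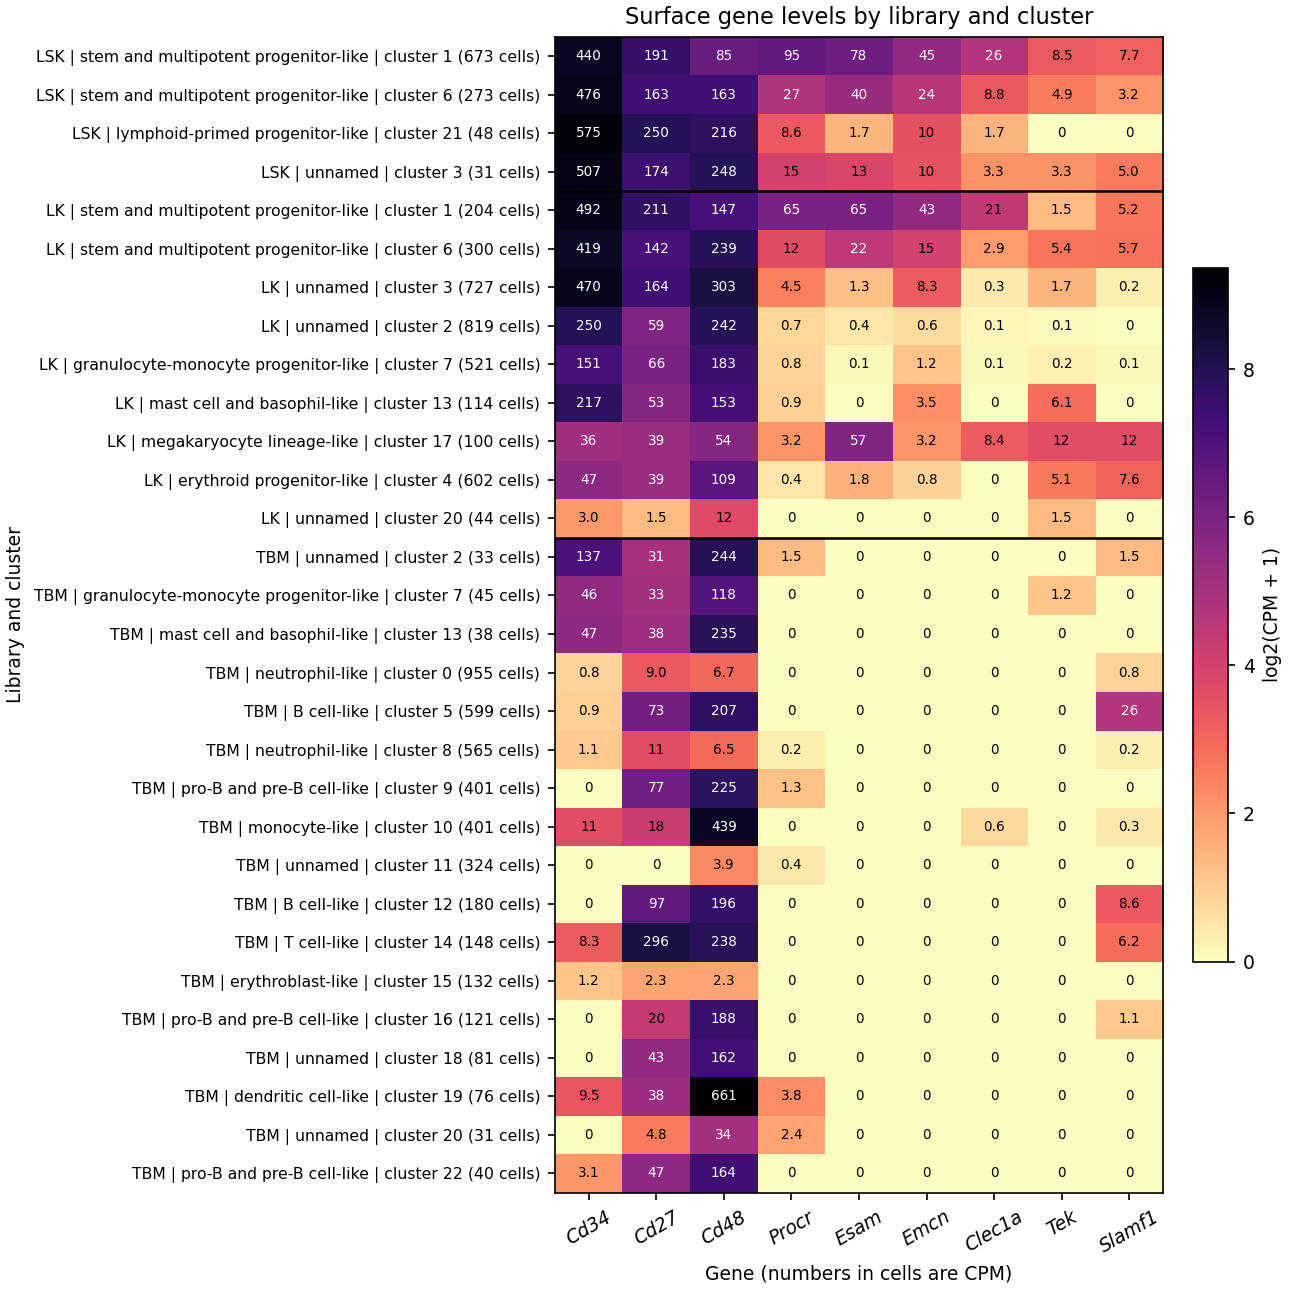
Level of the 9 genes (columns) in each combination of library and cluster with at least 30 cells (rows, LSK above LK above TBM). Colour is log2(CPM + 1) and numbers are CPM. Procr, Esam, Emcn and Clec1a are highest in cluster 1 in both LSK and LK. Emcn also stands at 8.34 CPM in LK cells of the unnamed cluster 3, and Esam at 56.9 CPM in megakaryocyte lineage-like cells of LK. The highest Slamf1 level shown, 25.5 CPM, is in B cell-like TBM cells.

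Clusters 1 and 6 held cells of both sorted libraries, so LSK and LK could be compared among cells of like expression. In cluster 1, with 673 LSK and 204 LK cells at medians of 8276 and 6274.5 UMIs, most of the gap seen between whole libraries was absent. Emcn stood at 44.6 CPM (LSK) and 43.3 CPM (LK), or 0.05 as a log2 ratio (-0.37 to 0.48). Esam had 78.2 and 64.9 CPM, a log2 ratio of 0.27 (-0.06 to 0.62), and Clec1a 25.6 and 20.9 CPM, with 0.29 (-0.30 to 0.93). Procr kept a smaller difference at 0.56 (0.23 to 0.90). Tek was the 1 gene of the 9 past 2-fold in cluster 1, with 50 UMIs in LSK and 2 in LK and a log2 ratio of 2.51 (0.59 to 5.60), against 5.81% of 10614 genes higher by that much, and 0 were lower by it, against 0.82%.

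In cluster 6, with 273 LSK and 300 LK cells at medians of 14952 and 10113.5 UMIs, 4 of these genes were higher in LSK. The log2 ratios of LSK over LK were 1.63 (0.54 to 2.86) for Clec1a, 1.22 (0.68 to 1.80) for Procr, 0.87 (0.46 to 1.30) for Esam and 0.70 (0.18 to 1.24) for Emcn. The intervals of Tek, at -0.14 (-1.15 to 0.88), and Slamf1, at -0.84 (-1.99 to 0.27), covered 0. Clec1a and Procr were the 2 genes past 2-fold, against 4.13% of 10126 genes, and 0 were 2-fold lower, against 0.918%. Cd48 was lower in LSK in both clusters, with a log2 ratio of -0.79 (-1.03 to -0.54) in cluster 1 and -0.55 (-0.70 to -0.40) in cluster 6. Cd34 was slightly lower in LSK in cluster 1, at -0.16 (-0.28 to -0.03), and slightly higher in cluster 6, at 0.18 (0.08 to 0.29). In the unnamed cluster 3, with 31 LSK and 727 LK cells at medians of 17241 and 12470 UMIs, 6 of the 9 genes had at least 20 UMIs, and of these 2 were 2-fold or more higher in LSK and 0 lower, against 6.08% and 4.86% of 10215 genes. Both rested on few LSK molecules, 9 of Procr for a log2 ratio of 1.75 (0.53 to 2.80) and 8 of Esam for 3.34 (1.86 to 4.72). LSK cells were the deeper ones in all 3 clusters, and the part of depth in these ratios was not tested.

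**Figure D3:**
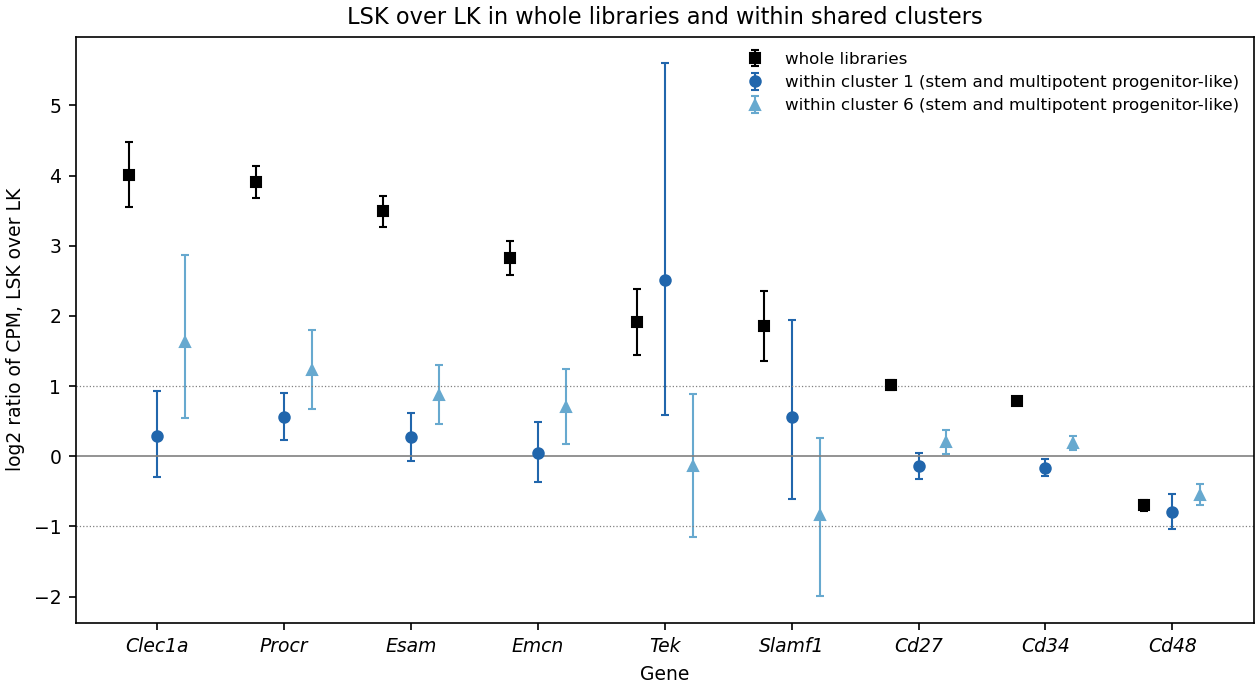
Log2 ratio of CPM, LSK over LK, for the 9 genes in the whole libraries (squares), within cluster 1 (circles) and within cluster 6 (triangles), with 95% counting intervals. Dotted lines mark 2-fold. The ratios of Clec1a, Procr, Esam and Emcn lie between 2.82 and 4.004 in whole libraries and between 0.05 and 1.63 within clusters, while Cd48 lies below 0 in all comparisons shown.

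How the genes fall together in single cells was read from cells thinned to 2000 UMIs, as the number of cells with both genes of a pair over the number given by the product of the single shares. In LSK more pairs had intervals below the product than above it. Cells with a Procr UMI less often held Cd48: 11 cells had both where the product gave 23.2, a ratio of 0.47 (0.24 to 0.85). Esam with Cd48 was similar, at 10 cells and a ratio of 0.49 (0.23 to 0.90). Cd48 with Clec1a was lower still, with 1 cell where the product gave 7.34, a ratio of 0.14 and an upper bound of 0.76.

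Cd34 was found with Clec1a and Slamf1 below the product and with Cd48 and Cd27 above it. Of the 44 LSK cells with a Clec1a UMI, 6 held Cd34 where the product gave 23.6, a ratio of 0.25 (0.09 to 0.55). Of the 16 cells with Slamf1, 2 held Cd34 where the product gave 8.56, a ratio of 0.23 (0.03 to 0.84). Cd48 and Cd34 were found together in 122 cells, a ratio of 1.28 (1.06 to 1.53), and Cd34 and Cd27 in 216 cells, a ratio of 1.19 (1.04 to 1.36). Among the stem cell genes 1 pair cleared 1: Esam and Clec1a were together in 12 cells with a ratio of 2.37 (1.22 to 4.13). The interval of Procr and Esam, at 1.498 (0.96 to 2.23), covered 1. Of the 23 pairs with at least 5 cells by the product, 3 had intervals above 1 and 5 below it. Within cluster 1 of LSK, Cd34 with Clec1a was again low at 0.24 (0.08 to 0.57), the 1 interval below 1 there. The 2 intervals above 1 were those of Cd48 with Cd34 at 1.51 (1.14 to 1.96) and Cd34 with Cd27 at 1.23 (1.03 to 1.46). Procr with Cd48, at 0.46 (0.17 to 1.01), Esam with Cd48, at 0.61 (0.25 to 1.26), and Esam with Clec1a, at 1.42 (0.65 to 2.70), covered 1 in cluster 1, where Cd48 with Clec1a had under 5 cells by the product. In cluster 6 of LSK 0 of 7 such pairs cleared 1 on either side.

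Over its whole library, LK gave part of the same picture. Cd34 and Cd27 were together in 313 cells, a ratio of 1.47 (1.31 to 1.64), and Cd48 and Cd34 in 503 cells, a ratio of 1.22 (1.11 to 1.33). Esam with Cd48 was low at 0.46 (0.20 to 0.91). Slamf1 and Cd34 met in 0 of the 15 LK cells with Slamf1, where the product gave 5.49. The cells differ in class, though: of those with Slamf1 and without Cd48, 10 of 14 in LK were erythroid progenitor-like. In LSK 14 of 16 were stem and multipotent progenitor-like. Procr and Cd27 were together in 14 LK cells, above the product with a ratio of 2.13 (1.16 to 3.57), where LSK gave 0.86. Among the LK cells of cluster 1 alone, Procr and Cd27 stood at 1.05 (0.50 to 1.92). Of the 11 pairs with at least 5 cells by the product in those cells, 1 had an interval above 1 and 0 below it. In cluster 6 of LK 0 of 4 such pairs cleared 1 on either side. Of the 8 LSK and 6 LK pairs whose intervals lay to 1 side of 1, all kept their side at 4000 UMIs per cell, and 6 LSK and 6 LK intervals still excluded 1; Cd34 with Clec1a in LSK then stood at 0.55 (0.38 to 0.79).

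**Figure D4:**
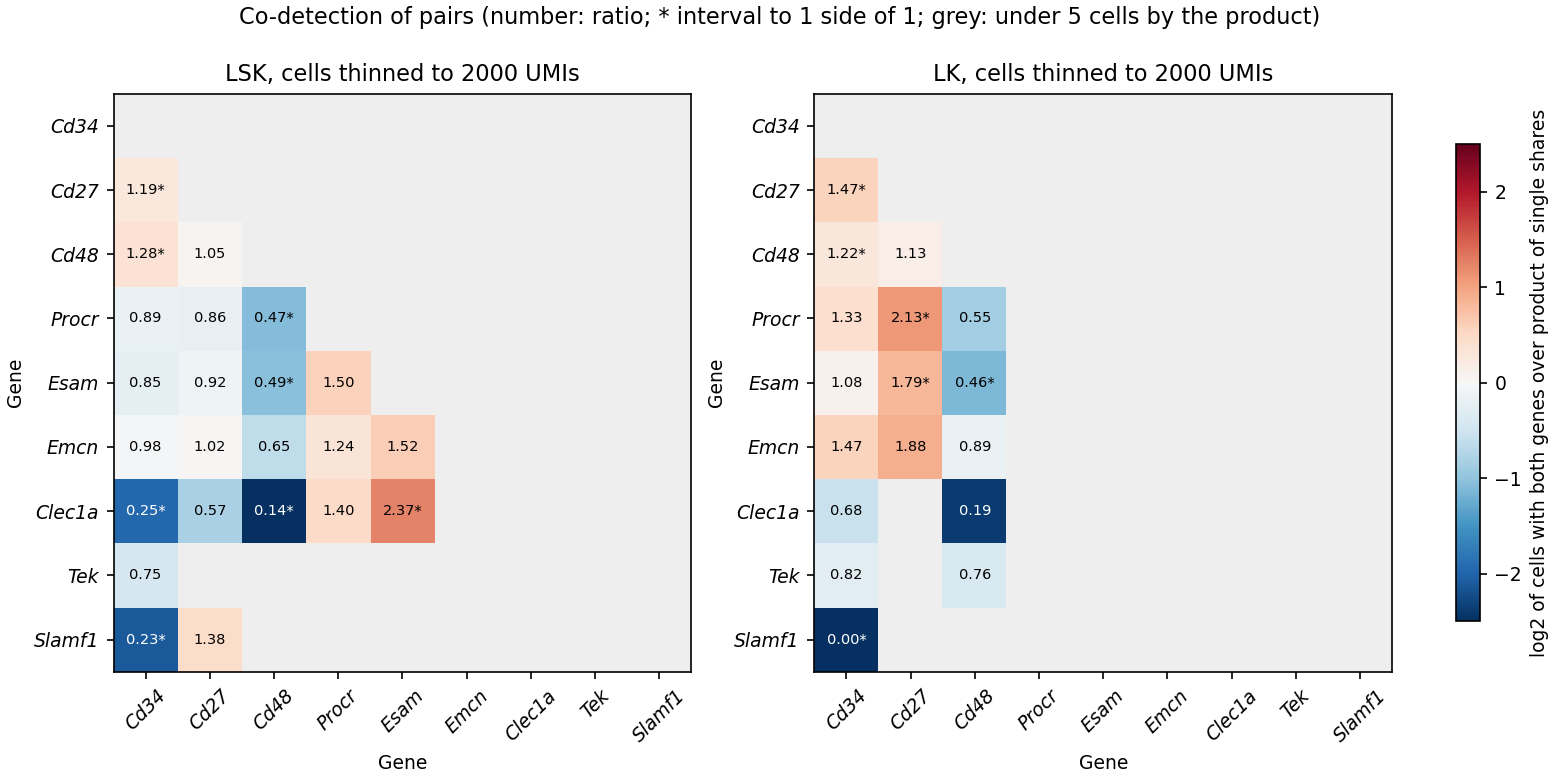
Cells with both genes over the number given by the product of the single shares, for pairs of the 9 genes in LSK (left) and LK (right), thinned to 2000 UMIs per cell. Numbers are ratios, an asterisk marks a 95% counting interval to 1 side of 1, and grey marks pairs with under 5 cells by the product. In LSK, Cd48 with Clec1a (0.14), Slamf1 with Cd34 (0.23) and Cd34 with Clec1a (0.25) are lowest and Esam with Clec1a (2.37) is highest.

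The RNA counterpart of the SLAM gate, Slamf1 without Cd48, was found in 16 of 1067 thinned LSK cells, 14 of 3452 LK cells and 5 of 2929 TBM cells. These are shares of 1.4995% (0.859% to 2.42%) in LSK, 0.406% (0.222% to 0.680%) in LK and 0.171% (0.0555% to 0.398%) in TBM, and at full depth 4.31%, 0.982% and 0.569%. The classes that held these cells differed between libraries. In LSK 14 of the 16 (87.5%) were stem and multipotent progenitor-like, which is near the 88.7% of all LSK cells in that class. In LK 10 of the 14 (71.4%) were erythroid progenitor-like, a class of 17.4% of LK cells. In TBM 3 of the 5 were B cell-like, a class with 296 of the 2929 thinned TBM cells (18.5% of TBM cells before thinning). No thinned LSK cell held a UMI of both Slamf1 and Cd48, 0 of 1067, which by 3 counts of the total allows a share of up to 0.281%. The product of the single shares gave under 5 cells for this pair, too few to read the 0 as exclusion. At full depth 14 of the 60 LSK cells with Slamf1 held Cd48. Adding Procr left 5 LSK cells, 1 LK cell and 0 TBM cells.

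Procr without Cd48, a pattern chosen after values of these libraries had been seen, selected more cells. The pattern was seen in 128 LSK cells (12.0%), 32 LK cells (0.927%) and 4 TBM cells (0.137%). Of the 128 LSK cells 98.4% were in the stem-like class, which made up 88.7% of the library, and of the 32 LK cells 90.6% were in that class, which made up 14.6%. The patterns of Cd34 and Flt3, which encodes the FLT3 receptor that marks multipotent progenitors with lymphoid bias, divided LSK into 40.7% of cells with neither RNA, 41.3% with Cd34 alone, 12.2% with both and 5.81% with Flt3 alone. At full depth the share with neither was 14.6% and with both 46.4%, so most of the cells that showed neither RNA after thinning held at least 1 of them at full depth. In LK, Cd34 was read with Fcgr3, an Fc receptor gene of the gates for myeloid progenitors. After thinning, 32.5% of LK cells held Cd34 alone, 4.06% both, 10.5% Fcgr3 alone and 52.9% neither. At full depth these shares were 39.3%, 37.5%, 4.22% and 19.0%, so the low share with both after thinning depended on depth.

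Other genes differed between LSK cells picked by these patterns. They are 10 lineage, stem cell and cell cycle genes, also chosen after values had been seen, and both the cells and the genes are given as a description. The 2 sets differ in class: 98.4% of the 128 LSK cells with Procr and without Cd48 were stem-like. Of the 178 cells with Cd48 and without Slamf1, 80.3% were. The part of class in the differences below was not tested. The 128 cells had 160 CPM (115 to 217) of Mecom, a transcription factor needed for stem cell maintenance, against 47.8 CPM (27.8 to 76.5) in the 178 cells. Mpo, which encodes myeloperoxidase of the granulocyte lineage, stood at 117 CPM (79.1 to 167) and 753 CPM (665 to 849) in the same sets. Dntt, which encodes the terminal transferase of early lymphoid cells, had 3.91 CPM (0.0989 to 21.8) and 146 CPM (109 to 192). Top2a, a gene of dividing cells, had 39.1 CPM (18.7 to 71.8) and 126 CPM (92.2 to 169). Mki67, also of dividing cells, had overlapping intervals, with 11.7 CPM (2.42 to 34.2) and 36.5 CPM (19.4 to 62.4). Pf4, which encodes a platelet chemokine, stood at 89.8 CPM (56.95 to 135) in the cells with Procr and at 22.5 CPM (9.70 to 44.3) in those with Cd48. Elane, the neutrophil elastase gene, had 23.4 CPM (8.601 to 51.0) and 301 CPM (246 to 363), carried by 2.34% and 5.06% of the cells. Hlf overlapped narrowly, and Hoxb5 and Klf1 had at most 3 UMIs in either set.

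**Figure D5:**
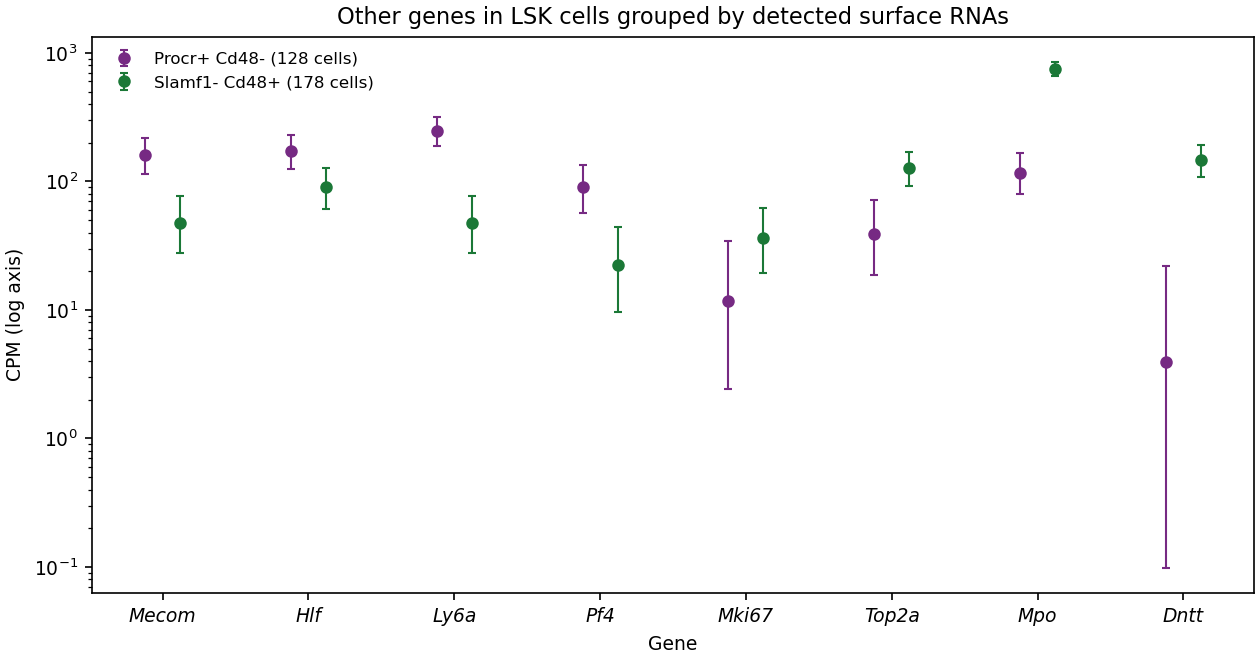
Level (CPM, log axis) of other genes in LSK cells with Procr and without Cd48 RNA (128 cells) and with Cd48 and without Slamf1 RNA (178 cells), cells thinned to 2000 UMIs, with 95% counting intervals. Mecom, Ly6a and Pf4 are higher in the cells with Procr, and Mpo, Dntt and Top2a in the cells with Cd48. Hlf and Mki67 intervals overlap.

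A thinned LSK cell showed on average 1.40 of the 9 genes, against 0.915 in LK and 0.289 in TBM, with SDs over cells of 0.986, 0.884 and 0.522. None of the 9 was seen in 19.0% (LSK), 38.1% (LK) and 74.3% (TBM) of cells. The most seen in 1 thinned cell was 5 in LSK, 5 in LK and 3 in TBM, and at full depth 8, 6 and 5. Detection rested on single molecules for the rare genes: at full depth 95.8% of the LSK cells with Tek, 93.3% of those with Slamf1 and 59.9% of those with Procr held just 1 UMI of it.

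Across the 30 combinations of library and cluster with at least 30 cells, levels of Procr, Emcn, Esam and Clec1a ran together. On log2(CPM + 10) Pearson's r was 0.97 for Procr with Emcn, 0.95 for Esam with Clec1a, 0.94 for Procr with Clec1a and 0.12 for Procr with Cd48. These values describe points that share libraries, depth and related cells, and carry no test. Procr, Emcn, Esam and Clec1a were absent or low in most of the combinations, so their high r rests mainly on the few with high levels. The genes most like Procr were Bdh2 (r = 0.97), Nkx2-3 and Npdc1, those most like Esam included Tcf15 (0.98) and Plscr2, and those most like Emcn were Vldlr (0.98), Hlf and Bdh2. For Clec1a they were Npdc1 (0.96), Lhcgr and Tcf15, and for Tek Cavin1 (0.90), Aldh1l1 and Arhgap6. Slamf1 had no close match, the best being Rhof (0.78), Fchsd2 and Kcnk5. Cd48 was most like Dock10 (0.89), Zfp277 and Ctsa, Cd34 most like Adgrl4 (0.94), Plppr3 and Otos, and Cd27 most like Bbx (0.88), Tap2 and Gm12216.

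Genes of the same families and pathways were read beside the 9. Of 5 measured SLAM family genes other than Slamf1 and Cd48, 2 exceeded LK by 2-fold or more in LSK and 0 fell 2-fold short of it, against 19.9% of all genes higher and 4.04% lower. Cd244a, which encodes the receptor of CD48, had 14.1 CPM (LSK), 6.05 (LK) and 6.15 (TBM), a log2 ratio of 1.22 for LSK over LK. Ly9 and Cd84 differed less, with log2 ratios of 0.47 and 0.69. For LK over TBM 0 of 8 SLAM family genes were higher and 6 lower, where 7 of the 9 surface genes were higher, against 27.3% of all genes higher and 16.8% lower.

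Among 14 other genes used in stem and progenitor gates, 9 were higher in LSK than in LK and 2 lower, against 19.9% and 4.04% of all genes. Ly6a, given above with the gate, had an LSK over LK log2 ratio of 3.70. The Fc receptor genes Fcgr3 and Fcgr2b were the lower ones, with log2 ratios of -4.17 and -2.58. Among 13 measured ligands and partners of the 9 proteins, 4 were higher in LSK and 0 lower, set against those shares of all genes. Angpt1, which encodes the angiopoietin ligand of TIE2, stood at 145 CPM (LSK), 33.2 (LK) and 3.19 (TBM), and Tie1, the related receptor, at 36.6, 7.21 and 0.592 CPM. F2r and F2rl3, thrombin receptors of the system in which EPCR acts, had LSK over LK log2 ratios of 1.34 and 1.69. Of 7 measured C-type lectin genes other than Clec1a, 0 were higher in LSK and 2 lower, against the same 19.9% and 4.04%, with -4.76 for Clec4a2 and -3.25 for Clec12a.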

How the data were processed

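The authors deposited UMI counts that are whole numbers and not normalized, 1 matrix per library. The submitters' processing notes list Cell Ranger 4.0.0 and mm10. Annotation release, strand setting and cell calling were not given in the sources used here. The libraries held 1091 LSK, 3560 LK and 4317 TBM barcodes, where the labels state 1070, 3441 and 3984 cells. A minimum of 200 genes and a maximum of 10% mitochondrial UMIs left 1070, 3464 and 4290. Scrublet, run on each library, then removed 3, 3 and 73 doublets, under the expected share, so some are still present. Free RNA was not corrected for.

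CPM are summed UMIs scaled to a common total, with exact Poisson intervals. Ratios have exact conditional binomial and shares exact Clopper-Pearson intervals. These cover counting error only. A share of 0 is given with the limit of 3 counts of the total. The floor of 3 UMIs is 0.253 (LSK), 0.0601 (LK) and 0.137 CPM (TBM). Cells were clustered together (scanpy 1.11.5, leidenalg 0.10.2; 2000 variable genes without the 9 genes, gate, cell cycle, ribosomal, mitochondrial and receptor segment genes; 30 components, 15 neighbours, Leiden resolution 1). Clusters were named from marker lists where at least 3 markers were seen, and names end in -like. Named genes are the 9 genes, the 3 genes with the highest correlation to each, and up to 4 genes of each related list with the largest absolute LSK over LK log2 ratio and at least 50 UMIs. Kit, Flt3, the endothelial markers, the genes read in selected cells and the Procr without Cd48 pattern fall outside that rule, and 1 gene that it names is not reported here. The genes and lists were chosen with earlier results of these data known. Interval and thinning code was tested on simulated counts. Python 3.11.15, numpy 2.4.6, scipy 1.17.1, pandas 2.3.3 and matplotlib 3.10.9 were used.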

Additional observations from a re-analysis of the deposited data

How the results depend on the processing

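The 27 log2 ratios of the 9 genes were recomputed under 6 alternatives, and of the 162 values 0 changed direction past 2-fold, 131 stayed inside the counting interval and 31 left it, all of these under size factors (13) or equal weight per cell (18). The widest shift, 2.38, was that of Tek for LK over TBM under equal weight and lay inside its interval. With size factors 1 gene, Cd48, was at least 2-fold lower for LSK over LK. Without the cell richest in each gene, Tek stood at log2 ratios of 3.59 (LK over TBM) and 5.48 (LSK over TBM), bounds against a floor of 3 counts. Equal weight per cell moved Cd34 to 5.44 in LK over TBM and Slamf1 to 0.39 in LSK over TBM. The share of cells with Slamf1 and without Cd48 depended on depth. In LSK it was 0.750% at 1000 UMIs per cell, 4.31% at full depth and 0.187% where 2 UMIs were asked for. In LK it was 0.982% at full depth, 0.0867% with 2 UMIs and 0.173% with all deposited barcodes, which drew a new random sample of molecules. In TBM it was 0.569% at full depth. The mean number of genes per cell at 1000 UMIs, 4000 UMIs, full depth and with 2 UMIs at full depth was 0.820, 2.22, 3.43 and 2.01 in LSK, 0.534, 1.46, 2.36 and 1.66 in LK, and 0.182, 0.411, 0.464 and 0.192 in TBM. Of the 144 levels by class, 17 left their interval at resolution 2. At resolution 0.5 just 108 of them had a class to compare with, and 6 of these left their interval. Lymphoid-primed progenitor-like LSK, mast cell and basophil-like LK, and T cell-like and erythroblast-like TBM cells had no counterpart of at least 30 cells there. The highest levels of Cd34 and Cd27 by class were thus not checked at resolution 0.5. The lists of most similar genes changed in 6 of 9 cases with log2(CPM + 1) and in 5 of 9 with genes of at least 1000 UMIs. They thus depend on the added constant and on the UMIs asked of a gene. Co-detection at 4000 UMIs was chosen after seeing the data. No paired analysis was possible because each gate has 1 library.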

Other observations

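Cells sorted by Cd27 and Esam RNA add a view on the lymphoid and megakaryocyte genes of LSK. After thinning, 302 LSK cells held Cd27 without Esam and 87 held Esam without Cd27. Dntt stood at 126 CPM (99.1 to 157) in the cells with Cd27 and at 5.75 CPM (0.145 to 32.0) in those with Esam, and the 642 cells with neither RNA had 102 CPM (85.3 to 121), an interval that overlaps that of the cells with Cd27. Pf4 had 34.8 CPM (21.5 to 53.1) in the cells with Cd27, 201 CPM (140 to 280) in those with Esam and 63.1 CPM (50.1 to 78.4) in those with neither. Mpo had overlapping intervals, at 219 CPM (183 to 259) and 207 CPM (145 to 286). The 130 LSK cells with both Cd34 and Flt3 had 258 CPM (200 to 327) of Dntt and the 62 cells with Flt3 alone 371 CPM (272 to 495). The 441 cells with Cd34 alone had 65.8 CPM (49.9 to 85.0) of Dntt and the 434 cells with neither 42.6 CPM (30.01 to 58.8).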
